A study of Mus musculus with 3 samples.

Results

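Rnf213 is the protein-coding gene that took the highest share of the counts in RNA from the chromatin fraction of mouse macrophages that were exposed to Lipid A on 2 occasions with a rest between. It is 1 of 22028 protein-coding genes and 1 of 55536 annotated genes in the tables, and it was picked for this share. The share and the gene's place in the order are therefore descriptions and carry no test. The gene was found by its symbol and joined across tables by its identifier, ENSMUSG00000070327.14. In mouse build mm10 with GENCODE M21 annotation it spans chr11:119393100-119487418 on the plus strand and has 3 annotated transcripts, all of them protein-coding.

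The 3 libraries belong to 1 group. Macrophages grown from the bone marrow of C57BL/6J mice were kept with Lipid A at 100 ng/ml for 12 hours. It was then washed out for 12 hours, and the same dose was given back for the last 50 minutes. Lipid A anchors lipopolysaccharide in the bacterial outer membrane and is recognised at the cell surface by Toll-like receptor 4. Total RNA of the chromatin fraction, which is rich in RNA still being made or kept at chromatin, was sequenced after depletion of ribosomal RNA. The labels give no age or sex, 1 donor identifier for all 3 libraries, and starting amounts of 1 µg, 250 ng and 500 ng for replicates 1, 2 and 3. Nothing says that the libraries came from separate animals or cultures, so each SD is the spread between these libraries and may be technical. With no untreated group, no response to Lipid A can be measured from these values.

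RNF213, also called mysterin, is a giant cytosolic protein that joins a chain of AAA+ ATPase modules, the kind of motor found in dynein, to a RING finger ubiquitin ligase. Its gene is induced by interferon, and in humans its variants are linked to moyamoya disease, a narrowing of arteries at the base of the brain. In human cells the protein has been reported to attach ubiquitin to the lipid A of lipopolysaccharide on bacteria that reach the cytosol, where the linear ubiquitin assembly complex then extends the coat and autophagy receptors bind it. It has also been reported to bind proteins that carry the ubiquitin-like modifier ISG15 and to sit on lipid droplets.

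The transcripts differ in ways that set how well reads can be told apart. Rnf213-201 and Rnf213-202 each have 67 exons and 16716 bases, with 5152 and 5151 codons, and differ in 2 exons. Exon 11 of Rnf213-201 starts at position 119418074 and that of Rnf213-202 at 119418077. The stretch across the exon 10 to exon 11 junction, chr11:119416615-119418106 on the plus strand, is shown because this 3-base choice is where their coding sequences part. The capitals mark the 3 bases that Rnf213-202 lacks.
Rnf213-201: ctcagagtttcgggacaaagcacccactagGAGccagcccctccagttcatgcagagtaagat
Rnf213-202: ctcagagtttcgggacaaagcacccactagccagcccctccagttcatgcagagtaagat
The other difference is 3 bases at the 3′ end of the last exon. Only 31 of the 16686 31-base words of Rnf213-201, and 29 of those of Rnf213-202, are in no other Rnf213 transcript.

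Rnf213-203 is a short transcript of the gene's 3′ end, with 9 exons, 2422 bases and 312 codons. Its coding sequence lies whole and in frame inside that of Rnf213-201, from base 14520 counted from 0. The first 60 coding bases of both are shown because they mark where each reading frame opens, with the start codon in capitals. That of Rnf213-201 lies at chr11:119393100-119393159, and that of Rnf213-203 is spliced within chr11:119480891-119481164.
Rnf213-201: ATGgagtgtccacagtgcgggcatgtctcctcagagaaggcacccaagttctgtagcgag
Rnf213-203: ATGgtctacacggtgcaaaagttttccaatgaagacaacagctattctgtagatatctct
The annotated Rnf213-201 begins at its start codon, with 0 bases of 5′ untranslated region. RefSeq on GRCm38.p6 places the start of the transcript 3001 bases earlier, at position 119390099. The annotated Rnf213 transcripts hold none of those bases.

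The alignment-based tables summed to 13897176, 19597343 and 19348626 expected counts for replicates 1, 2 and 3. Tables made directly from the reads summed to 20743071, 34961536 and 32857771. The libraries differed in composition: protein-coding genes took 67.2%, 60.5% and 58.8% of expected counts, and 3 genes with ribosomal RNA sequence (Gm26917, Gm42418 and CT010467.1) took 11.8%, 21.5% and 23.1%. All 10 macrophage markers had a TPM, the level per transcript length scaled to a fixed total, of at least 1 in every library, as had 39.2% of all protein-coding genes. A gene at that level in every library is called detected. Their summed TPM was 1330 to 1486. In the alignment-based tables none of the 6 neutrophil, 5 dendritic, 4 B cell or 4 T cell markers passed that level. Within each of these lists the summed TPM stayed at or below 1.69 there, with Elane, Cxcr2, Pax5, Cd3e and Cd3d at 0 counts. Quantified from the reads, 6 of these markers had a mean TPM above 1, namely Cd3d (15.7), Cxcr2 (4.05), Cd8a (1.57), Zbtb46 (1.40), Clec9a (1.21) and Mpo (1.01). By alignment, of 4 markers each, 1 endothelial marker (Kdr, at 8.92, 2.27 and 2.01 TPM) and 1 erythroid marker (Alas2) passed it, with summed TPM of 3.04 to 10.2 and 4.49 to 6.66. The part of other cells or of library composition in the Rnf213 values was not tested.

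Rnf213 held 179839, 231830 and 213312 expected counts in replicates 1, 2 and 3. These were 1.294%, 1.183% and 1.1025% of all counts, with exact 95% binomial intervals of 1.288 to 1.300%, 1.178 to 1.188% and 1.098 to 1.107%. The intervals cover counting error only, and those of the 3 libraries do not overlap. The mean share was 1.19% ± 0.0962 (SD, n = 3), highest in replicate 1 and lowest in replicate 3.

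The order of the libraries depended on what the count was divided by. Among protein-coding counts alone the share was 1.93%, 1.96% and 1.87% (1.92% ± 0.0414, SD, n = 3), and without the 3 ribosomal RNA-like genes it was 1.47%, 1.51% and 1.43% (1.47% ± 0.0374). Replicate 2 was then the highest. The SD was smaller with both denominators than over all counts.

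Per length, Rnf213 was at 902, 912 and 921 TPM in replicates 1, 2 and 3, a mean of 911.7 ± 9.86 (SD, n = 3). Replicate 1, highest by share, was here the lowest, and the range was narrow. The SD was 1.08% of the mean, the third lowest among the 570 protein-coding genes whose mean TPM reached 100, whose median was 19.1%. The order depended on the gene's short transcript: without it, an alternative given below, replicate 1 was the highest. Both the order and the tight spread also changed with the scaling. Rescaled over features with an effective length of at least 200 bases, the TPM was 2245, 2104 and 2011 (2120 ± 117.6, SD, n = 3), with replicate 1 the highest. For the share of counts the SD was 8.06% of the mean, the 70th lowest, against a median of 20.1%. On counts, edgeR's biological coefficient of variation for Rnf213 was 25.3%, against a median of 27.3% over 13184 genes. That estimate is drawn towards the value of all genes.

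In the read-based tables Rnf213 was at 806, 646 and 659 TPM (704 ± 89.2, SD, n = 3). Replicate 1 was the highest there, and the SD was 12.7% of the mean, the 206th lowest of 820 genes at that level. The read-based TPM was below the alignment-based TPM in all 3 libraries, with ratios of 0.894, 0.708 and 0.715. With 3 libraries an exact sign-flip test cannot give a p below 0.25. For comparison, the median ratio over 569 protein-coding genes whose mean alignment-based TPM reached 100 was 1.14, and 4.04% of them had a lower mean ratio than Rnf213's 0.773. Estimated counts were 233084, 313952 and 280207, which were 1.12%, 0.898% and 0.853% of the read-based totals.

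The alignment-based tables also give a posterior mean TPM, which was 835, 852 and 858 (849 ± 12.0, SD, n = 3), with an SD of 1.41% of the mean. The deposited intervals around it ran from 828 to 843, from 845 to 860 and from 851 to 866, at a level that the sources used here do not state. The deposited TPM lay above its interval in all 3 libraries.

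**Figure D1:**
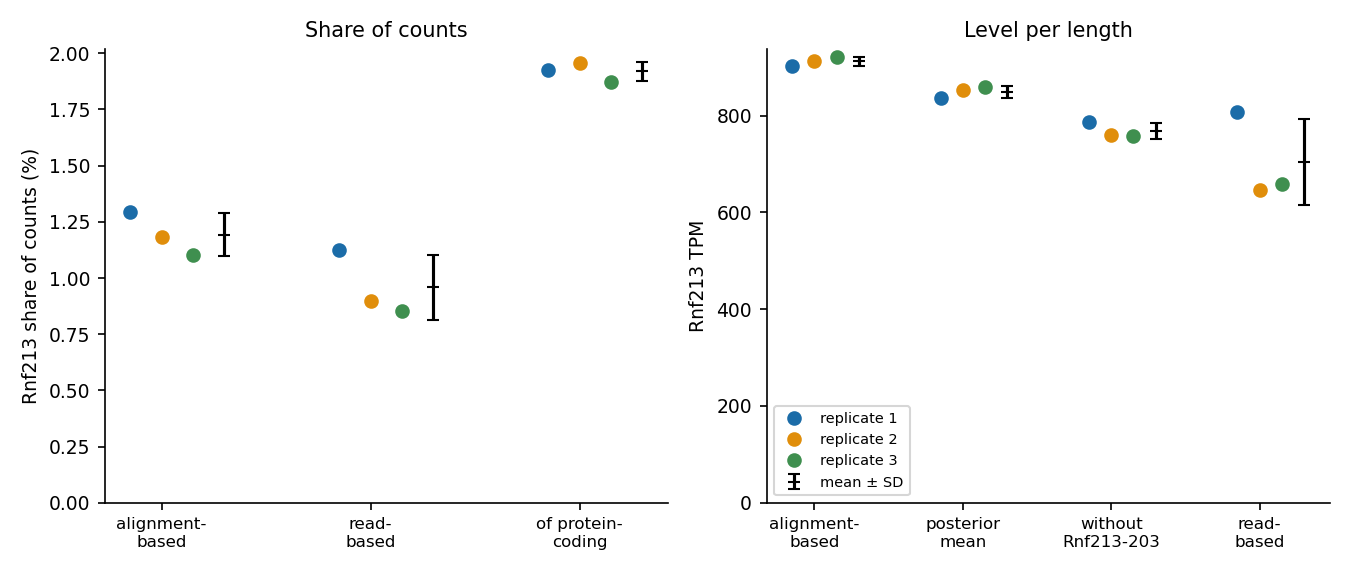
Rnf213 in each of the 3 libraries (points, coloured by replicate) with the mean and SD (black). The left panel shows the share of counts in percent, over all alignment-based counts, over all read-based counts and over protein-coding counts; the right panel shows TPM by 4 estimates, where the alignment-based values of 902 to 921 are the tightest and the read-based values put replicate 1 on top at 806.

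By count, Rnf213 stood first among protein-coding genes in each library and in both kinds of table. Over all annotated genes it stood at place 4 in replicate 1 and place 5 in replicates 2 and 3, behind noncoding RNAs such as Malat1, at 9.33% ± 0.248 of counts. The next protein-coding gene was Lilrb4a, an inhibitory receptor of myeloid cells, with 0.679%, 0.320% and 0.444%. The lowest Rnf213 share, 1.1025%, was above the highest share of Lilrb4a, and the ratio of the means was 2.48. Lilrb4a and the third gene, its relative Lilr4b (0.475% ± 0.172, SD, n = 3), have similar sequences. The split of reads between them, and with it the size of the gap to Rnf213, is therefore uncertain. In replicate 1 Lilr4b alone held 0.656% of counts.

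The genes in places 4 to 10 followed without a gap, and each overlapped its neighbour in the order. They were Parp14, an interferon-induced ADP-ribosyltransferase, at 0.387% ± 0.0996, the transcription factor Zeb2 at 0.356% ± 0.0733 and the signalling protease Malt1 at 0.320% ± 0.0743. Acod1, which makes itaconate, followed at 0.319% ± 0.112, and Clec4e, a receptor for mycobacterial glycolipid, at 0.303% ± 0.110. Macf1, a giant linker of microtubules and actin, was at 0.275% ± 0.0305, and Rsad2, the antiviral enzyme viperin, at 0.269% ± 0.191 (all SD, n = 3). Unlike most of these genes, Macf1 was lowest in replicate 1.

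**Figure D2:**
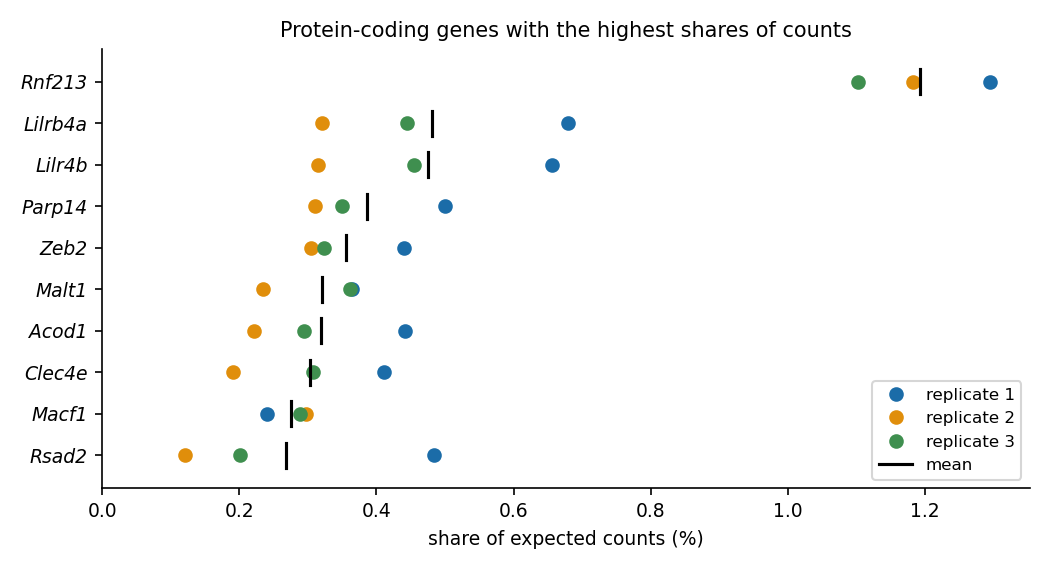
Share of expected counts (x axis, percent) for the 10 protein-coding genes with the highest mean share, 1 row a gene, with 1 point a library and a bar at the mean. The 3 Rnf213 points lie between 1.1025% and 1.294%, to the right of every other point, the highest of which is Lilrb4a in replicate 1 at 0.679%.

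A long transcript yields more fragments for each molecule, so the count order and the level per length differ. The mean length of Rnf213 in the gene tables was 14473 bases, the 19th longest of all protein-coding genes, against a median of 2273 bases for those detected. By mean TPM it stood 17th, and 26th, 16th and 21st in the single libraries. In the read-based tables it stood 43rd, 37th and 42nd. The 16 genes above it by mean TPM were 911 to 4455 bases long, with a median of 1911 bases.

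The neighbours of Rnf213 by TPM could not be told from it. Parp14 (987 ± 177 TPM), Fth1, the ferritin heavy chain (980 ± 165), Tcirg1, a proton pump subunit (1014 ± 89.0), and Rsrp1 (917 ± 70.2) were above it in the mean but overlapped it between libraries. H2-D1, Clec4e, Hnrnpa2b1 and Ddx5 were below it in the mean and overlapped it too. H2-D1 has close relatives in the genome, so its level is uncertain.

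Among long genes Rnf213 had the highest TPM. It was picked for its counts, which favours this place among genes of great length. Of 100 protein-coding genes with a mean length of at least 10000 bases, 36 were detected in every library, a share near the 39.2% of all protein-coding genes. The median TPM of the 100 was 0.103, against 0.367 over all protein-coding genes. After Rnf213 came Macf1 at 275 ± 23.4 TPM, the cholesterol exporter Abca1 at 203 ± 26.5, the ubiquitin ligase Ubr4 at 198 ± 17.1, the scaffold Ahnak at 139 ± 25.8 and the dynein heavy chain Dync1h1 at 124 ± 15.4 (SD, n = 3). Of the 18 genes with a greater mean length than Rnf213, Ahnak had the highest level. With fewer counts over a greater length, these 18 could not exceed Rnf213 in TPM. The mean length of Rnf213, and so this set of 18, depends on the level given to the short Rnf213-203. Rnf213-201 alone has 16716 bases, more than the mean length of Ahnak (15712 bases).

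**Figure D3:**
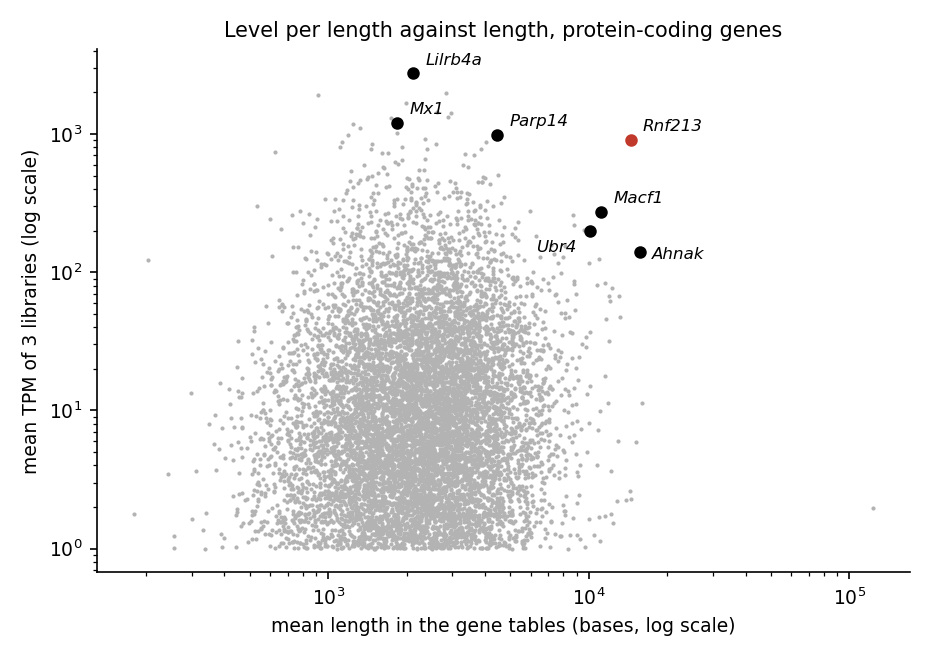
Mean TPM of the 3 libraries (y axis, log scale) against mean length in the gene tables (x axis, bases, log scale), 1 point for each protein-coding gene plotted, all at a TPM of at least 1. Rnf213 (red) lies at 14473 bases and 911.7 TPM, above Macf1, Ubr4 and Ahnak among the long genes and below the shorter Lilrb4a and Mx1.

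The split of Rnf213 among its transcripts was not used to choose the gene. In the alignment-based tables Rnf213-201, the transcript with the 1 extra codon, held 176222, 225853 and 207334 counts and was at 786, 761 and 758 TPM (768 ± 15.9, SD, n = 3). It took 87.21%, 83.40% and 82.21% of the gene's TPM (84.3% ± 2.61) and 97.5% ± 0.408 of its counts. In the read-based tables it was at 777, 623 and 635 TPM, or 96.3%, 96.5% and 96.3% of the gene. Rnf213-201 led in every library and in both kinds of table.

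Rnf213-202, which lacks 1 codon, was close to 0 in the alignment-based tables, with 109, 72 and 69 counts and 0.49, 0.24 and 0.25 TPM. Its posterior mean counts were 1276, 306 and 251, with posterior SDs of 759, 202 and 172, so its level was loosely set. The read-based tables gave it 8665, 10915 and 10311 counts and 29.98, 22.5 and 24.2 TPM, or 3.72%, 3.48% and 3.68% of the gene. Its level relative to Rnf213-201 thus depended on the quantification, and the 2 forms part at few bases.

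Rnf213-203, the short 3′ form, had 3507, 5905 and 5910 counts and 115, 151 and 164 TPM (143 ± 25.3, SD, n = 3). It was lowest in replicate 1. With 2.42% of the gene's counts it took 15.7% ± 2.62 of its TPM, because a count on a short transcript weighs more per length. The read-based tables listed it at 0 in all 3 libraries, where 3 counts would have given 0.0761, 0.0460 and 0.0528 TPM.

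The gene's level was lower, and the order of the libraries different, without the short form. Without Rnf213-203 the alignment-based TPM of the gene was 787, 761 and 758, a mean of 768, and replicate 1 became the highest. This alternative was chosen after the data were seen. In replicate 1 the value lay close to the read-based 806, while in replicates 2 and 3 it stayed above the read-based 646 and 659.

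Of the 2392 31-base words of Rnf213-203, 195 were in no other Rnf213 transcript. Of these 195, 139 also occurred on the opposite strand of another gene, which left 56 found in no other gene on either strand. Its first exon, chr11:119478057-119478225, lies in intron 58 of Rnf213-201 and wholly inside A930037H05Rik-205, a transcript on the minus strand annotated as a retained intron. The sources used here do not say whether strand was used in quantification, and reads from that intron or from the opposite strand cannot be told from this exon by position alone.

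**Figure D4:**
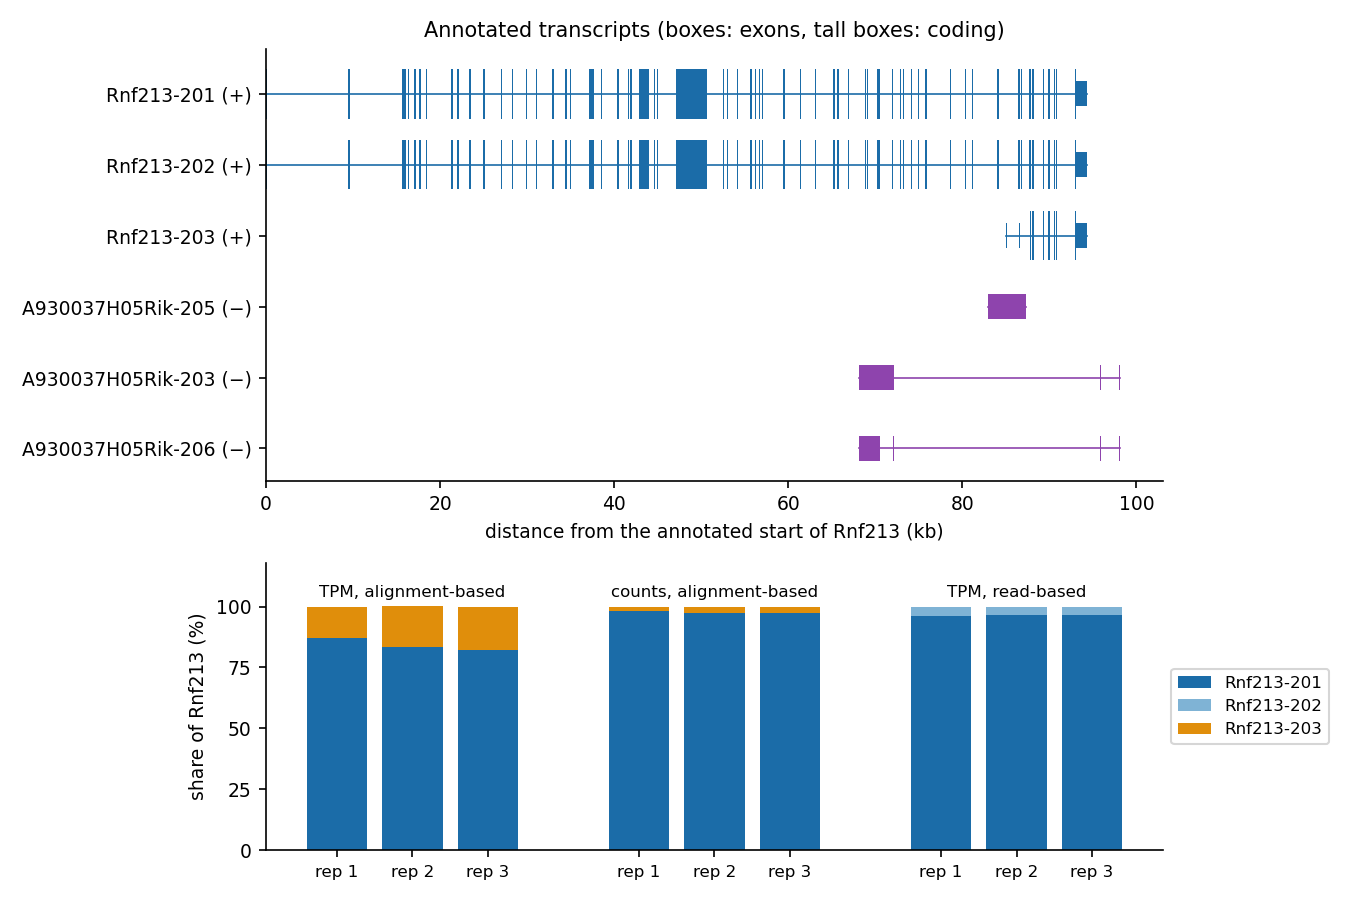
Upper panel, exons (boxes) and coding parts (tall boxes) of the 3 Rnf213 transcripts (blue, plus strand) and the 3 A930037H05Rik transcripts with the most counts (purple, minus strand), by distance from the annotated start of Rnf213 in kb. Lower panel, the share of Rnf213 given to each transcript in each library, in percent, by alignment-based TPM, alignment-based counts and read-based TPM: Rnf213-203 takes 12.74 to 17.76% of the alignment-based TPM and 0 of the read-based TPM.

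A930037H05Rik, a noncoding gene at 119448788 to 119491298 on the minus strand, covers 38631 bases of the Rnf213 span. It was at 233, 138 and 122 TPM (164 ± 59.8, SD, n = 3) and 205.8, 112.1 and 100.9 TPM when quantified from reads. It was highest in replicate 1 in both, the library in which Rnf213-203 was lowest. Its transcript A930037H05Rik-205 covers 561 exon bases of Rnf213-201 in 4 exons and had 6338, 4386 and 3560 counts. That was 1.504, 1.063 and 0.862 counts per base, against 10.6, 13.7 and 12.6 for Rnf213-201.

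Overlap on the opposite strand touched a small part of Rnf213. Of the 16686 31-base words of Rnf213-201, 1032 were also in another gene, all on the opposite strand, and 0 were in another gene on the same strand. The remaining 93.8% were in no other gene.

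The next protein-coding genes were far below Rnf213. Slc26a11, a transporter gene before it, was at 7.64, 10.9 and 14.3 TPM (10.9 ± 3.35, SD, n = 3), and Endov, a DNA and RNA repair nuclease gene after it, was at 6.12, 9.68 and 6.48 TPM (7.43 ± 1.96). Mir1932, at 119390472 to 119390561 on the plus strand, lies between Slc26a11 and the GENCODE start of Rnf213. It lies after the earlier RefSeq start of Rnf213, at position 119390099. Mir1932 had 0 counts in the alignment-based tables and 22, 37 and 15 in the read-based tables. There these few counts gave 81.8, 76.6 and 34.1 TPM.

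Rnf213 belongs to the list of 28 interferon-stimulated genes. All 27 others were detected in every library, against 39.2% of protein-coding genes. The median of the other 27 was 206.3 TPM. Of these, only Mx1, a gene of the Mx GTPase family (1207 ± 257 TPM), and Parp14 (987 ± 177) had a higher mean TPM than Rnf213 by alignment. Of that pair, Parp14 overlapped Rnf213 between libraries and Mx1 did not. Rsad2 (779 ± 489), and Oasl2, a relative of the oligoadenylate synthetases (731 ± 148), came next, and Ifitm3, which blocks virus entry, was lowest at 17.4 ± 5.08 (SD, n = 3). In the read-based tables Mx1, Rsad2, Parp14 and Oasl2 had higher means (1542, 1233, 843 and 748 TPM) than Rnf213 (704). By counts no other gene of the list could exceed Rnf213, which was picked as the protein-coding gene with the highest share. Rnf213 alone held 33.8%, 48.5% and 44.5% of the list's counts in replicates 1, 2 and 3.

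The other interferon-stimulated genes were higher in replicate 1, and Rnf213 was nearly level across the libraries by alignment-based TPM. This is a description, with no test. All 27 other genes had their highest TPM in replicate 1, in both kinds of table, while 22.2% of 8638 detected protein-coding genes did so in the alignment-based tables. On the log2 scale the TPM of replicate 1 over the mean of replicates 2 and 3 had a median of 0.79 for the 27 genes and a range of 0.21 to 1.93. Over the 8638 detected protein-coding genes its median was -0.22. For Rnf213 it was -0.02, above that median and below all 27, and 0.05 without Rnf213-203, still below all 27. In the read-based tables it was 0.31, against a median of -0.13 over detected protein-coding genes, with 1 of the 27, Eif2ak2, below it at 0.17. For the share of counts it was 0.18, again below all 27, whose lowest was 0.36. Protein-coding genes as a whole also took their highest share in replicate 1, at 67.2% against 60.5% and 58.8%. Replicate 1 also had the smallest share of ribosomal RNA-like counts, and the part of library composition in this pattern was not tested.

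Cmpk2, a mitochondrial nucleotide kinase, was at the other end of the list with 482, 93.7 and 159 TPM. Rsad2 was at 1319, 367 and 651 TPM, and Mx1 was at 1478, 1177 and 968. Oas2, an oligoadenylate synthetase, came nearest to Rnf213 in the alignment-based tables, with 260, 220 and 232 TPM. Rnf213 took its smallest share of the list's counts in replicate 1, the library in which the other members were high.

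**Figure D5:**
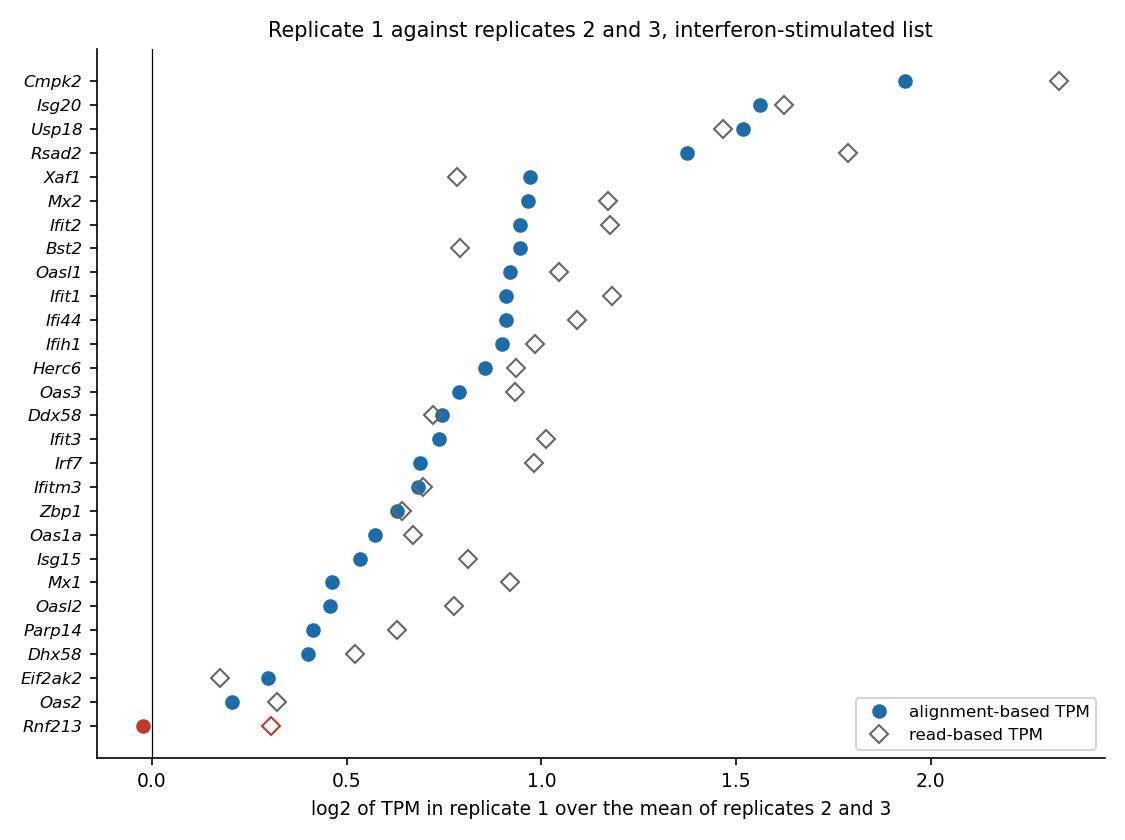
For each of the 28 interferon-stimulated genes (rows), the log2 of TPM in replicate 1 over the mean of replicates 2 and 3, in the alignment-based (filled circles) and read-based (open diamonds) tables, with Rnf213 in red. Rnf213 is the lowest of the 28 in the alignment-based tables, at -0.02, and the second lowest in the read-based tables, at 0.31.

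Of 11 interferon signalling genes, 10 were detected, and the 11 had a median of 73.9 TPM. The counts for this list and the lists that follow stand against 39.2% detected and a median of 0.367 TPM over all protein-coding genes. The transcription factors Irf1 (781 ± 147 TPM) and Stat2 (461 ± 143) were highest, and the feedback inhibitor Socs1 was lowest at 1.73 ± 0.144 (SD, n = 3). Ifnb1, which encodes interferon beta, was the gene not detected in every library, at 9.51, 0.56 and 4.21 TPM, and it too was highest in replicate 1.

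All 13 genes of linear ubiquitin assembly and of autophagy receptors and their partners passed detection, with a median of 38.2 TPM. The autophagy receptor Sqstm1 was at 803 ± 295 TPM, the kinase Tbk1 at 228 ± 29.3 and the galectin Lgals8, which marks broken vacuoles, at 137 ± 42.8. The 3 subunits of the linear ubiquitin assembly complex were at 51.6 ± 7.38 (Rbck1), 38.2 ± 3.20 (Rnf31) and 29.0 ± 3.46 (Sharpin), and Calcoco1 was lowest at 4.14 ± 1.08 (SD, n = 3). Sqstm1 came closest to Rnf213 by alignment and lay above Rnf213 in the read-based tables (1063 against 704 TPM).

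Cytosolic sensing of lipopolysaccharide was represented by 10 matched genes, all detected, with a median of 99.0 TPM. The guanylate-binding protein Gbp5 was at 716 ± 281 TPM, the inflammasome sensor Nlrp3 at 448 ± 138 and Casp4, the mouse caspase-11 gene that binds cytosolic lipopolysaccharide, at 339 ± 116. Irgm2, an immunity-related GTPase, was lowest at 22.3 ± 7.48 (SD, n = 3).

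The genes of the ubiquitin-activating and ubiquitin-conjugating (E2) families were lower. All 10 were detected, with a median of 19.2 TPM by alignment, where Ube2d3 (157 ± 22.1), Ube2d2a (75.2 ± 4.07) and Ube2n (34.1 ± 5.80) led. Ube2l3, an E2 enzyme reported to work with RNF213, was at 12.7 ± 2.25, and Ube2d1 was lowest at 3.18 ± 1.35 (SD, n = 3). The order differed in the read-based tables. There Ube2l6, counted here and with the ISG15 system, had a mean of 83.6 TPM, above Ube2d2a (78.6). Ube2l3 was at 50.9 TPM, above Ube2n (41.7). All 6 genes of the ISG15 system passed detection, and their median was 85.4 TPM. Its activating enzyme gene Uba7 was at 377 ± 56.0, the ligase gene Herc6 at 373 ± 137 and Trim25 at 102 ± 31.2, and the E2 gene Ube2l6 was lowest at 24.4 ± 4.73.

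Of 12 lipid droplet genes, 7 were detected, against 39.2% of protein-coding genes, and their median was 2.04 TPM, against 0.367 over all protein-coding genes. The droplet coat gene Plin2 was at 36.2 ± 9.78, the triglyceride synthase gene Dgat1 at 12.5 ± 4.32 and the lipase activator Abhd5 at 6.46 ± 1.47, with Dgat2 lowest at 0.0133 (SD, n = 3). Of 6 genes for reported partners of RNF213, all were detected, with a median of 46.3 TPM. The actin crosslinker Flna was at 222 ± 63.4, the AAA+ ATPase Vcp at 107 ± 11.0, the phosphatase Ptpn1 at 76.3 ± 11.7 and the transcription factor Nfatc1 lowest at 5.06 ± 1.08. That order held by alignment only. In the read-based tables Ptpn1 had the highest mean of the 6, at 279 TPM, against 176 for Flna and 108 for Vcp.

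Among 10 other giant ubiquitin ligases and AAA+ proteins, all detected, the median was 102 TPM. Ubr4 was highest, and Rnf213 was 4.59-fold above it by mean TPM. Huwe1, a ligase of many nuclear and cytosolic proteins, was at 186 ± 17.8, Birc6, a giant inhibitor of apoptosis, at 136 ± 11.8, and Mdn1, which strips factors from ribosome precursors, lowest at 17.8 ± 3.97 (SD, n = 3). By alignment no gene of the lists for signalling, ubiquitin, lipopolysaccharide sensing, ISG15, lipid droplets, partners or giant proteins exceeded Rnf213 by mean TPM. In the read-based tables Irf1 (1068 TPM), Sqstm1 (1063) and Gbp5 (757) had a higher mean than Rnf213 (704).

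The genes whose counts varied most like those of Rnf213 were picked from 2119 protein-coding genes with a mean expected count of at least 1000. The measure was the largest difference, over the 3 libraries, between the log2 CPM (counts scaled to the same library total) of each gene around its own mean, with a pseudocount of 0.5. Rnf213 deviated by 0.13, -0.01 and -0.12. The 5 nearest were the ubiquitin ligase gene Cbl (0.0027), the phosphatase Ppm1b (0.0086), the deubiquitinase Usp7 (0.0099), Txndc9 (0.0215) and the kinase Dyrk1a (0.0216). Over only 3 libraries such likeness is common: 186 genes, or 8.78%, lay within 0.1 of Rnf213 in every library.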

How the data were processed

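Total RNA-seq of chromatin-fraction RNA was analysed in 3 libraries of 1 group. The expected counts, TPM and FPKM of the alignment-based tables and the estimated counts and TPM of the read-based tables are as deposited by the authors, on mm10 with GENCODE M21, per the text deposited with each library. The share of a gene's TPM per transcript is the percent deposited in the transcript tables. The sources used here do not give the programs or any use of strand. Counts were summed per gene, and shares were taken over all features of the gene table. Features that are not genes, nearly all phiX spike-in sequence, took 1.25%, 0.206% and 0.261% of counts and stayed out of edgeR's library sizes. TPM sums to a fixed total and depends on every other feature. Short effective lengths inflate some of these. A gene was detected if its TPM reached 1 in all 3 libraries. Chi-square per degree of freedom over gene counts was 124, 96.8 and 48.8 for the 3 pairs, so no library was a repeat deposit. The spread came from edgeR 4.0.16 in R 4.3.3 (intercept only, TMM, filterByExpr, counts rounded), tested on simulated data. Values were computed with Python 3.11.15 and pandas 2.3.3. Sequences came from the GENCODE M21 transcripts. Named genes were Rnf213, the 10 protein-coding genes highest by share, the 3 highest and the lowest of each list, members at 0, genes overlapping or next to Rnf213, and the 5 most like it; other genes, such as its neighbours by TPM, the long genes, the linear ubiquitin subunits, Ube2l3, Oas2, Cmpk2 and the markers above 1 TPM in the read-based tables, were chosen after their values were seen. One gene that the rule names is not reported here. The gene, the lists and the tests were chosen with earlier results of these data known, and the replicate 1 pattern of the interferon-stimulated list was noticed in the data.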

Additional observations from a re-analysis of the deposited data

How the results depend on the processing

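Depth limits little here, since Rnf213 has at least 179839 counts in each library, but 3 libraries of 1 group allow no contrast. No paired analysis was possible because there is 1 group. The mean share of counts was 1.47% without the 3 ribosomal RNA-like genes, 1.92% of protein-coding counts and 0.958% in the read-based tables, and 1.20% of annotated genes alone. Mean TPM was 849 as posterior mean, 704 in the read-based tables, 2120 when rescaled over effective lengths of at least 200 and 768 without Rnf213-203. The denominator of annotated genes and the TPM without Rnf213-203 were chosen after the data were seen. The place among protein-coding genes was 17 by TPM. The highest transcript held 96.4% of the gene in the read-based tables and 97.5% by counts. With genes of a mean count of at least 100 allowed, 3 of the 5 most alike genes were shared. Leaving out 1 library gave shares of 1.14 to 1.24%, TPM of 907 to 917, a place of 1 in each case, 82.8 to 85.3% in the highest transcript and 28 interferon-stimulated genes detected. The coefficient of variation ranged from 22.6%, without replicate 2, to 34.5%, without replicate 3. The causes of these differences were not tested. The other alternatives run left each value within 1 SD between libraries, or, for places and counts, within 1.5 times, and gave coefficients of variation of 24.1% without a filter and 25.6% with DESeq2 size factors.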
